A study of Mus musculus with 10 samples.

Results

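Chromatin accessibility was followed at 8 genes of the red cell membrane skeleton, Sptb, Ank1, Epb42, Slc4a1, Epb41, Add2, Dmtn and Tmod1 (8 of 21851 protein-coding genes placed in the mouse build mm10). The genes were chosen by name, and their peaks were taken from 50 kb upstream to 50 kb downstream of each gene span in GENCODE M21. This gave 376 of the 146939 peak summits in 10 lists, which merged into 73 of 28981 regions. A region joins all summits whose windows of 250 bp on either side overlap, and a library lists a region when its list has a summit there.

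ATAC-seq, which marks open DNA by the insertion of sequencing adaptors by the Tn5 transposase, had been run on G1E-ER4, a mouse erythroid line. The cells have no functional Gata1 gene, and all groups carry a fusion of the erythroid factor GATA1 to an estrogen receptor domain, which estradiol releases into activity. The line is a single subclone, and the groups were untreated (0 h) or 2, 6, 12 or 24 h in 1e-07 M β-estradiol. The medium held stem cell factor and erythropoietin, and each time had 2 libraries of about 50000 cells each. The 0 h group thus differs from the later ones in treatment as well as in time, and no untreated group was taken at a later time. The study describes the ATAC-seq at each time as 2 independent experiments, which the labels number as replicates.

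The membrane skeleton is a lattice under the red cell surface. Spectrin tetramers form its strands, ankyrin and protein 4.2 tie the strands to band 3 in the membrane, and a junctional complex of short actin filaments, protein 4.1, adducin, dematin and tropomodulin ties the strand ends together. Inherited defects of several of these proteins make red cells round or elliptical and fragile, and several of the genes are known to be switched up late in red cell development under GATA1 and KLF1.

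The 10 lists held 10698 to 19859 summits, and between 25 and 50 of them lay at the members. A list gives for each summit a score, the −log10 of its q-value, which is not scaled between libraries. Scores were therefore read as percentiles within a list, from 0 for the weakest to 100 for the strongest peak. Read depth is unknown, and a region that a list lacks was not called there, which is not the same as closed. The promoters of 7 of 8 erythroid marker genes were listed in at least 1 library and those of 10 markers of other lineages in none.

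A set of 8 windows from the members is shown because the results below turn on them: 2 of the 5 intronic regions listed in every library, the regions that entered or left the lists by 24 h, and the intronic region nearest to the Slc4a1 start. Each is the central 201 bp of its region on the plus strand of GRCm38.p6 (mm10), from the RefSeq assembly. Capitals mark GATA words, AGATAA or TGATAA on either strand, the letters that GATA factors are known to bind.
Sptb, intron 1, chr12:76670692-76670892: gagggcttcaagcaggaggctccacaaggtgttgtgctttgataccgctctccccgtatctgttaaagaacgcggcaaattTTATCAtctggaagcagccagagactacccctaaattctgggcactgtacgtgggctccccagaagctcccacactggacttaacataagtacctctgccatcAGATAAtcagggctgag
Sptb, 42.3 kb upstream, chr12:76752778-76752978: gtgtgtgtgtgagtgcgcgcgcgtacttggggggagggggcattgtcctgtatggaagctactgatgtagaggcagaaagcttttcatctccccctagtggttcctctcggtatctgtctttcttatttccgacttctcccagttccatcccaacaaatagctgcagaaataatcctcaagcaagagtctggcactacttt
Ank1, intron 1, chr8:23054086-23054286: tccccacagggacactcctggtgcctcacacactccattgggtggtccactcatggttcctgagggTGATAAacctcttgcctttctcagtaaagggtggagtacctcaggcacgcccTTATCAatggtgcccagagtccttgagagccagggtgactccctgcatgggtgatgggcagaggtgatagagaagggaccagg
Slc4a1, intron 1, chr11:102363732-102363932: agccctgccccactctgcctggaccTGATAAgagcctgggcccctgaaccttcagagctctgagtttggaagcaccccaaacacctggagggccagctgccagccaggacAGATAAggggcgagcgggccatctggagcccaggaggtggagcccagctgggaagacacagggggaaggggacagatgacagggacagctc
Add2, 24.3 kb upstream, chr6:86004336-86004536: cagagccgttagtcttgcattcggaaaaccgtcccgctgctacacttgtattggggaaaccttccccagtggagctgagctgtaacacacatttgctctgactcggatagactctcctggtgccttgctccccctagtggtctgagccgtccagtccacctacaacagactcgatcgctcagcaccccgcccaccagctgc
Add2, intron 1, chr6:86074983-86075183: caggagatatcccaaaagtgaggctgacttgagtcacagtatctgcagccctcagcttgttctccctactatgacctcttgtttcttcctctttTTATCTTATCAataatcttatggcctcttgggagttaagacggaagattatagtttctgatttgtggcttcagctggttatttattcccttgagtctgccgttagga
Add2, intron 9, chr6:86103689-86103889: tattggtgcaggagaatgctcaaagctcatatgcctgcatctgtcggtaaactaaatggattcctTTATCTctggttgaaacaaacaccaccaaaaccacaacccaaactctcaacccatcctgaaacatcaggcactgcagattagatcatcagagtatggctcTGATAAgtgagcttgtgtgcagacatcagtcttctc
Dmtn, intron 1, chr14:70624005-70624205: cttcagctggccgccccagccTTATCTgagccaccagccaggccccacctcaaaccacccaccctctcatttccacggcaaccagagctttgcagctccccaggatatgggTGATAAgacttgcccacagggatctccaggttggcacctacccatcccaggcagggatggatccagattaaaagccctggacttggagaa

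The 2 windows outside genes, upstream of Sptb and of Add2, hold no GATA word, and each of the 6 intronic windows holds 2. In the window of Add2 intron 1 both words lie side by side and share a base. A composite, CTG followed after 7 or 8 bases by a GATA word, which TAL1 and GATA1 are known to bind together, occurs once in the windows of Sptb intron 1, Ank1, Slc4a1 and Dmtn, and not in either intronic window of Add2. Of the other 3 intronic regions in every list, that of Sptb at 36.0 kb holds 2 GATA words, that of Tmod1 holds 1 and that of Ank1 nearer to the first coding start holds 0.

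Outside the promoters lay 52 of the 73 member regions, beside 19386 of all 28981 regions over 1 kb from a coding start. Of the 73 regions, 7 lay within 1 kb of a coding start of a member, 14 within 1 kb of a start of a neighbouring gene, 25 in introns of a member and 27 elsewhere. All 10 libraries listed 16 of the 73 (21.9%), beside 21.5% of all regions, and a single library listed 21 (28.8%, beside 28.9% of all regions). By class, 4 of 7 member promoters, 3 of 14 promoters of neighbours, 5 of 25 intronic and 4 of 27 distal regions were in every library. Outside promoters these were 9 of 52, beside 1309 of the 19386 regions of the series over 1 kb from a coding start. The median member had 4.69 regions per 100 kb of gene and flanks, beside 2.17 for all protein-coding genes. The median was 4.94 for 8 other skeleton genes and 2.94 for 15 paralogs that are used mainly outside red cells. Among the members the values ran from 3.18 for Epb41 to 8.52 for Slc4a1. Of the 10 Slc4a1 regions, 6 lay at starts of neighbouring genes and 5 were listed by a single library.

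**Figure D1:**
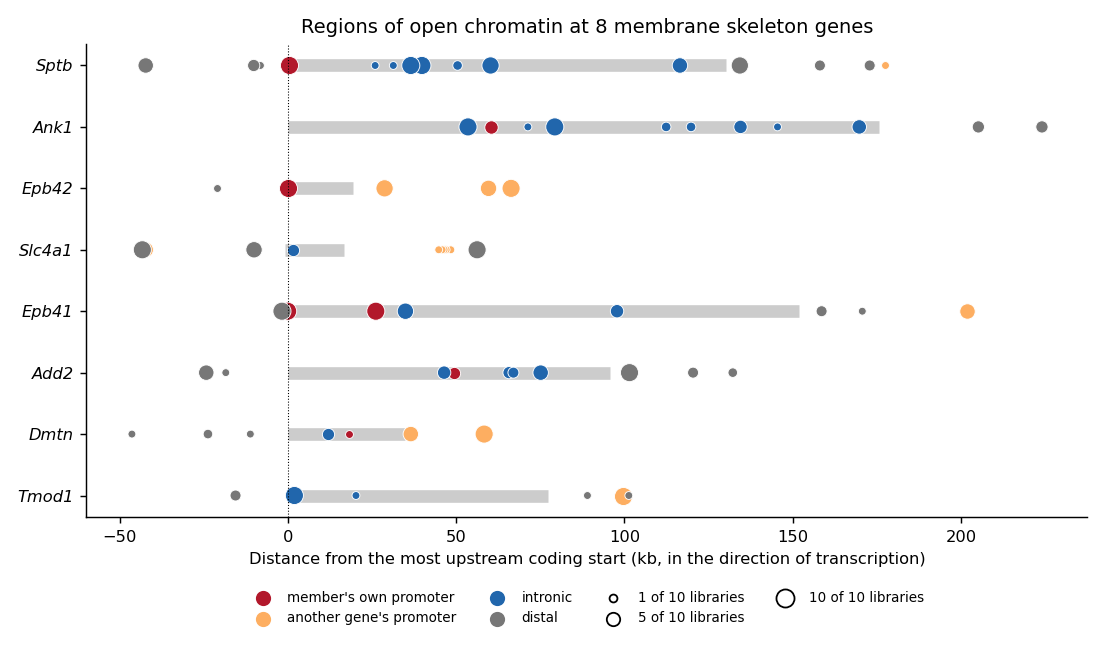
Positions of the 73 regions along the 8 genes, in kb from the most upstream coding start. Grey bars are gene spans, colour gives the class of a region and the area of a point grows with the number of libraries that list it, so that the promoters of Sptb, Epb42 and Epb41 stand as large red points (that of Epb41 partly behind a distal region) and Slc4a1 and Tmod1 have none.

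Promoter accessibility divided the members. Within 1 kb of a coding start, Sptb, Epb42 and Epb41 had a summit in all 10 libraries (3 of 8, beside 26.0% of all protein-coding genes). Ank1 had one in 5 libraries, Add2 in 4 and Dmtn in 1, and Slc4a1 and Tmod1 had none in any. Among 8 other genes of the skeleton, 6 had a promoter in all 10 libraries, Gypc (glycophorin C) had one in 8 and Mpp1 (the p55 protein) in 7. Of 15 paralogs that are used mainly outside red cells, 4 had a promoter in all 10 libraries and 8 in none. The share with none was 53.3% for the paralogs and 56.0% for all protein-coding genes, beside 2 of the 8 members. These lists are small and no test was made between them.

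**Figure D2:**
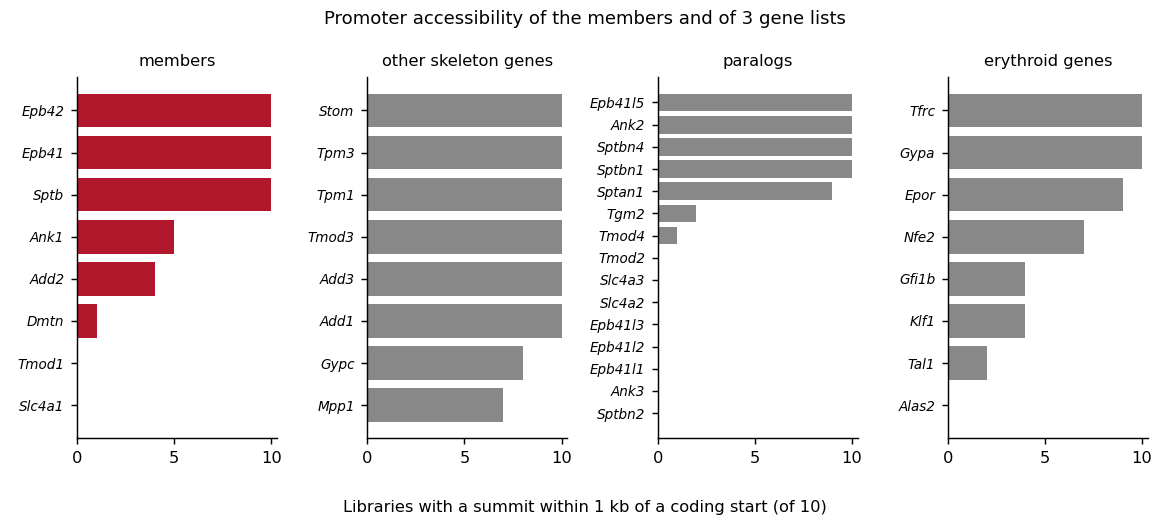
Number of libraries, of 10, with a summit within 1 kb of a coding start, for the 8 members, 8 other skeleton genes, 15 paralogs and 8 erythroid genes. The members cover the whole range, from 10 libraries for Sptb, Epb41 and Epb42 to 0 for Slc4a1 and Tmod1.

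Sptb encodes beta-spectrin, one chain of the strands. Its promoter region (chr12:76709810-76710941, centre 92 bp upstream of the nearest coding start) stood at percentiles 69.6 (replicate 1) and 60.2 (replicate 2) before treatment, 55.9 and 83.9 after 2 h, 70.4 and 90.1 after 6 h, 69.8 and 92.2 after 12 h, and 91.3 and 83.7 after 24 h. Both 24 h values lay above both 0 h values, and the values in between overlapped both. Its long first intron held 2 regions listed in every library. One of them, centred 39.2 kb inside the gene (chr12:76670517-76671100), was at 63.6 and 37.3 before treatment, 65.8 and 79.5 after 2 h, 56.9 and 90.6 after 6 h, 90.3 and 77.6 after 12 h, and 86.8 and 85.8 after 24 h. The mean percentile was 50.4 ± 18.6 at 0 h and 86.3 ± 0.762 at 24 h (SD, n = 2). The other, 36.0 kb inside (chr12:76673710-76674333), had the highest mean of the Sptb regions outside promoters listed in at least 8 libraries, 80.5 ± 10.1 (SD, n = 10), with a range from 56.9 to 91.9. It was already at 91.9 and 83.0 at 0 h and ended at 72.5 and 83.3.

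These ranks were tested for all 6234 regions listed in every library, 16 of them at the members, with limma on percentiles turned into normal scores (standard deviations of a normal distribution). For the Sptb intron 1 region at 39.2 kb the slope was 0.258 ± 0.10 (SE) normal scores per time step, with the 5 times taken as equal steps (adjusted p = 0.915), and the difference of 24 h from 0 h was 1.08 ± 0.495 (adjusted p = 0.999). No region passed an adjusted p of 0.05 in either test and in either direction (0% of regions in each). Without adjustment, slopes under 0.05 were found for 1.83% of regions upwards and 2.71% downwards, and the 24 h differences for 1.92% upwards and 2.23% downwards. At the members these were 1 region with a rising slope, the Sptb one, none with a falling slope, the same Sptb region higher at 24 h, and 1 Epb41 region lower at 24 h.

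Upstream of Sptb, a distal region 42.3 kb before the start and 12.7 kb from the coding start of Churc1 (chr12:76752531-76753618) was absent from both 0 h lists. It stood at 43.8 and 3.51 after 2 h, 29.1 and 43.0 after 6 h, 39.4 in replicate 2 alone at 12 h, and 63.2 and 7.68 after 24 h. It was thus called gained at 2, 6 and 24 h, where gained means listed by both libraries of a time and by neither of 0 h. With lists of equal length the gain remained at 24 h and not at 2 and 6 h. The 24 h replicates lay far apart, and their range covered all but 1 of the earlier values.

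Ank1 encodes ankyrin-1, which links spectrin to band 3. The most upstream coding start had no summit within 1 kb, and 9 of its 11 regions lay inside the gene, all of them downstream of that start. A promoter region at one of these (chr8:23034773-23035376, centre 66 bp upstream of the start) was listed at 10.4 and 23.0 before treatment, 52.4 and 0.0327 after 6 h and 20.6 in replicate 1 at 24 h, and by none of the 2 h and 12 h libraries. This left it lost at 2 and 12 h, but at neither time when every list was cut to the length of the shortest or when scores of at least 5 were required. Its percentiles apart from 52.4 were at or below 23.0. A pair of intronic regions nearby was in every library. The one 6.74 kb before this start (chr8:23027947-23028933) averaged 72.9 ± 12.5 (SD, n = 10) and peaked at 98.6 in replicate 1 at 12 h. The one 4.09 kb before a further start (chr8:23053633-23054679), whose sequence is shown above, was at 89.2 and 44.5 before treatment, 51.0 and 64.7 after 2 h, 73.7 and 54.5 after 6 h, 85.5 and 80.0 after 12 h, and 91.1 and 77.9 after 24 h. The 0 h replicates alone spanned nearly the whole range of the later values, and its slope was 0.177 ± 0.107 (SE; limma, adjusted p = 0.997).

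Epb42 encodes protein 4.2, which binds band 3 and ankyrin. It had the simplest surroundings, with 5 regions of which 3 belonged to the promoters of Ubr1, Tmem62 and Ccndbp1. Its own promoter (chr2:121036724-121037451, centre 68 bp downstream of the nearest start) was high from the beginning, at 73.1 and 82.7 before treatment, and then at 79.9 and 76.7, 83.9 and 51.3, 95.3 and 72.6, and 80.6 and 48.6 at 2, 6, 12 and 24 h. The groups overlapped, and the 24 h difference was -0.366 ± 0.521 normal scores (SE; limma, adjusted p = 0.999). No intronic region of Epb42 was listed in any library.

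Slc4a1 encodes band 3, the chloride and bicarbonate exchanger that anchors the skeleton. No library listed a summit within 1 kb of its start. The nearest region (chr11:102363556-102364116) lay in intron 1, 1.45 kb downstream of the start, and was listed by 4 libraries, at 20.6 in 0 h replicate 1, 33.7 in 6 h replicate 2, 61.6 in 12 h replicate 1 and 74.1 in 24 h replicate 1. No time had it in both replicates. A distal region 10.1 kb upstream (chr11:102375121-102375797) was in 8 libraries, at 62.5 and 40.0 before treatment, 74.3 at 2 h, 75.3 and 16.5 after 6 h, 74.3 and 44.2 after 12 h, and 82.8 at 24 h. Replicate 2 lacked it at 2 and 24 h and was the lower one at the other 3 times. The region outside promoters with the highest mean, 39.7 kb downstream (chr11:102308802-102309469), was in every list at 78.9 ± 16.4 (SD, n = 10), but it lay inside Ubtf and overlapped an exon. Another in every list, 42.4 kb upstream of the gene, lay 1.08 kb from the start of Slc25a39. Around the Ubtf starts, 5 of the 10 Slc4a1 regions were listed by 1 library each.

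Epb41 encodes protein 4.1, which strengthens the contact of spectrin with actin. It had 2 promoters in every list. The upstream one (chr4:132075037-132075702, centre 126 bp before the start) was at 34.5 and 72.7 before treatment, 70.5 and 52.8 after 2 h, 83.8 and 80.9 after 6 h, 67.4 and 80.0 after 12 h, and 44.9 and 73.6 after 24 h. The internal one, 26.1 kb inside the gene (chr4:132048839-132049497), was at 56.2 and 79.4 before treatment, 63.5 and 76.8 after 2 h, 90.2 and 79.8 after 6 h, 66.4 and 82.8 after 12 h, and 17.3 and 18.5 after 24 h. Both 24 h values were below all 8 earlier ones. The 24 h difference from 0 h was -1.41 ± 0.454 normal scores (SE; limma, adjusted p = 0.887), so this did not pass over all regions. At the upstream promoter the same difference was 0.149 ± 0.486 (adjusted p = 0.999), and the 2 promoters were not tested against each other. A distal region 1.76 kb before the upstream start was also in every list, from 6.65 to 77.8 with a median of 45.7.

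Add2 encodes beta-adducin, which caps actin filaments and recruits spectrin to them. It was the only member with regions lost at 24 h, where lost means listed by both 0 h libraries and by neither of the later time. A region in intron 1 (chr6:86074776-86075382, 2.97 kb before an internal start) was at 77.0 and 56.8 before treatment, 46.4 and 34.4 after 2 h, 85.7 in replicate 2 alone at 6 h, and in no list at 12 and 24 h. A region in intron 9 (chr6:86103456-86104071) was at 90.5 and 61.0 before treatment, 86.3 and 68.8 after 2 h, 17.8 and 66.6 after 6 h, 51.1 in replicate 1 alone at 12 h, and in no list at 24 h. Both stood above the median of both 0 h lists before they left. Over the 5 time steps, a two-sided exact permutation test of listing gave p = 0.0159 for the first (adjusted p = 0.799) and p = 0.0333 for the second (adjusted p = 0.799). The second rose to an exact p of 0.0833 without either 24 h library.

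The 2 Add2 regions were the members whose listing fell at an unadjusted exact p under 0.05, of 36 member regions in 2 to 9 libraries, and no member rose. Among all 14379 such regions, 4.26% fell and 1.70% rose by the same mark, and 0 passed after adjustment, with a smallest adjusted p of 0.799 in the exact permutation test. Other Add2 regions took other courses. A distal region 24.3 kb upstream (chr6:86004102-86004802) was in neither 0 h list, at 61.7 and 42.0 after 2 h, 49.6 and 20.2 after 6 h, 3.61 in replicate 1 at 12 h, and 39.1 and 37.8 after 24 h, and was called gained at 2, 6 and 24 h, of which the 6 h gain was lost with lists of equal length. The internal promoter (chr6:86077757-86078366, centre 6 bp before its start), downstream of the lost intron 1 region, was listed by 4 libraries between 21.8 and 52.7, never by both of a time and by neither of 0 h. A region 5.8 kb downstream of the gene (chr6:86129822-86130659) was in every list, at 93.0 and 16.8 at 0 h and 53.0 and 66.1 after 24 h.

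Dmtn encodes dematin, which bundles actin and binds spectrin. Its upstream starts had no summit within 1 kb in any library, and an internal start had one, at 2.34 in 6 h replicate 2 (chr14:70617833-70618333). An intron 1 region (chr14:70623758-70624480), 2.95 kb downstream of a coding start, was absent at 0, 2 and 12 h and was at 70.2 and 31.0 after 6 h and 14.2 and 23.6 after 24 h. It was called gained at 6 and 24 h, at neither with lists of equal length, and none of its 24 h values reached the 6 h ones. The exact permutation test of its listing gave p = 0.133 (adjusted p = 1.0). The region in every list near Dmtn, with a mean of 82.3 ± 13.5 (SD, n = 10), was the promoter of Nudt18.

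Tmod1 encodes tropomodulin-1, which caps the slow-growing end of the short actin filaments. It had no summit within 1 kb of its start but a region 1.90 kb inside intron 1 (chr4:46040509-46041235) in every list. In replicate 1 this was at 78.7, 75.9, 65.2, 30.8 and 85.7 from 0 to 24 h, and in replicate 2 at 18.4, 20.3, 42.6, 26.8 and 22.3. Replicate 1 was the higher at all 5 times, and at 0, 2 and 24 h the gap between replicates was wider than any gap between the means of 2 times, which ran from 28.8 at 12 h to 54.0 at 24 h. The 24 h difference was 0.205 ± 0.687 normal scores (SE; limma, adjusted p = 0.999).

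**Figure D3:**
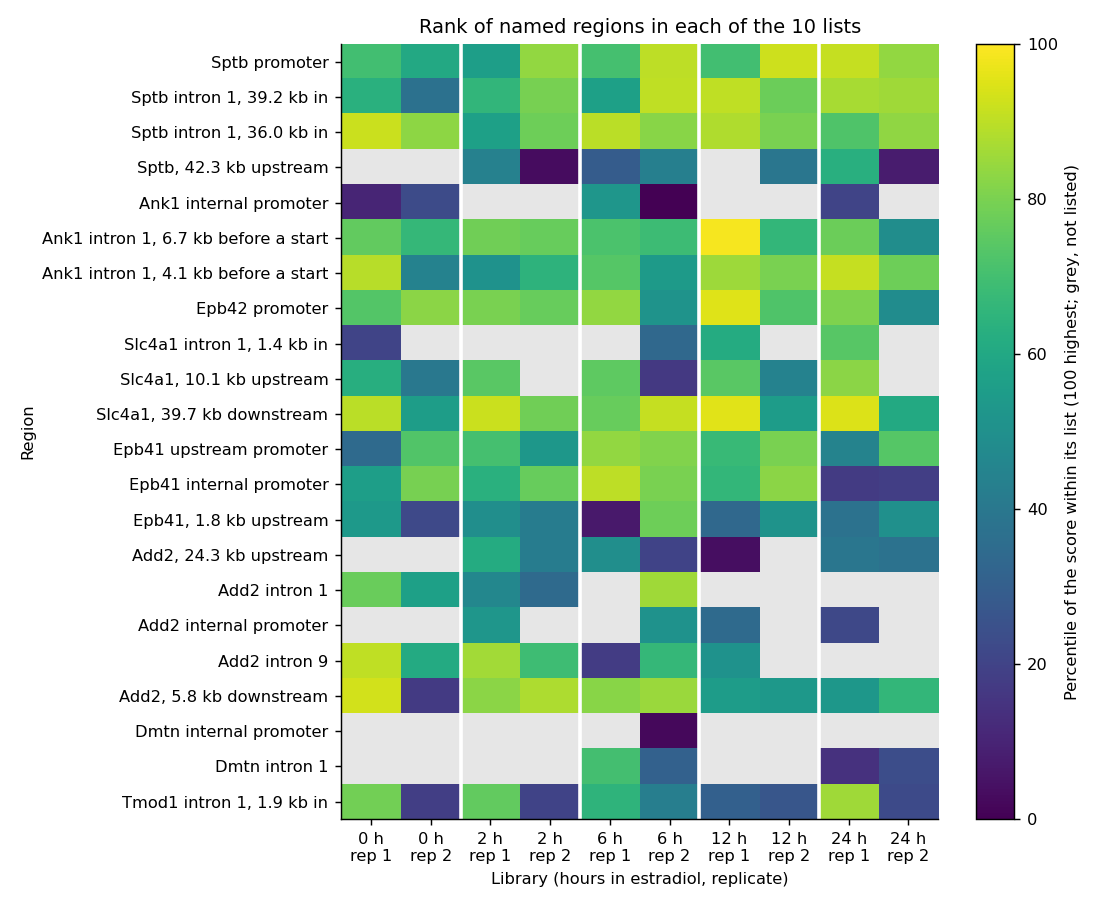
Percentile of the score of 22 named regions (rows of the plot) in each of the 10 libraries (columns, by hours in estradiol and replicate), with grey where a list has no summit. The Add2 intron 1 and intron 9 regions turn grey by 24 h, the Epb41 internal promoter is dark at 24 h only, and the promoters of Sptb and Epb42 stay at or above 48.6 throughout.

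Over all members, between 0 and 5 of the 73 regions entered or left the lists at any time, counted against 0 h. At 2 h, 2 of 73 were gained and 1 lost (2.67% and 1.15% of all regions). At 6 h, 5 were gained and 0 lost (4.08% and 0.759% of all regions). At 12 h, 3 were gained and 2 lost (2.47% and 1.88% of all regions). At 24 h, 3 were gained, at Sptb, Add2 and Dmtn, and 2 were lost, both at Add2 (4.11% and 2.74% of the member regions, beside 1.71% and 3.51% of all regions). With 2 libraries against 2, an exact permutation test of a single region cannot go below p = 0.33, so these are counts and not tests. The counts rest on single libraries at every time. Leaving out a library loosens the rule for all regions of the series, and their share without that library is not given. The counts without 1 library thus show how far the calls depend on it, and are no result about the members. For 2 h, 12 regions would be gained without replicate 2 of 2 h, 5 without replicate 1 and 4 without replicate 2 of 0 h, and 3, 5 or 2 would be lost without replicate 1 of 0 h, replicate 2 of 0 h or replicate 1 of 2 h. For 6 h, 14 would be gained without replicate 1 of 6 h and 10 without replicate 1 of 0 h, and 2, 5 or 1 would be lost without replicate 1 of 0 h, replicate 2 of 0 h or replicate 2 of 6 h. For 12 h, 10, 5 or 11 would be gained without replicate 1 of 0 h, replicate 1 of 12 h or replicate 2 of 12 h, and 6 or 7 would be lost without replicate 1 or replicate 2 of 0 h. Without replicate 2 of 24 h, the shortest list, 10 regions would be gained at 24 h, and 5, 9 or 6 would be lost without replicate 1 of 0 h, replicate 2 of 0 h or replicate 1 of 24 h. When every list was cut to its 10698 strongest summits, 53 member regions remained. In the cut lists 2 were gained at 2 h and 0 lost (2.18% and 2.20% of all regions of these lists). Of the earlier 2 h calls only the gain upstream of Add2 was kept. For 6 h none of the 5 gains was kept, 1 other region was gained and 0 were lost (2.20% and 2.17%). By 12 h 2 were gained and 1 lost (2.12% and 2.51%). Of the earlier 12 h calls only the gain downstream of Sptb and the loss in Add2 intron 1 were kept. Both losses of Add2 and the gains upstream of Sptb and of Add2 were kept at 24 h, and the Dmtn gain was not (2.66% gained and 3.80% lost among all regions of these lists).

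The number of member summits showed no trend with time that passed a test, and the shortest list held the fewest. By replicate it was 39 and 28 before treatment, 50 and 32 after 2 h, 36 and 50 after 6 h, 43 and 34 after 12 h, and 39 and 25 after 24 h, or 0.224% to 0.310% of each list. Against hours, Pearson's r was -0.245 (permutation p = 0.495) and Spearman's rho -0.0619 (permutation p = 0.873) over 10 libraries, and r was 0.158 (permutation p = 0.703) without the 2 libraries of 24 h. By library, 4 to 7 of the 7 member promoters were listed, 7 to 19 of the 25 intronic regions and 7 to 16 of the 27 distal ones.

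**Figure D4:**
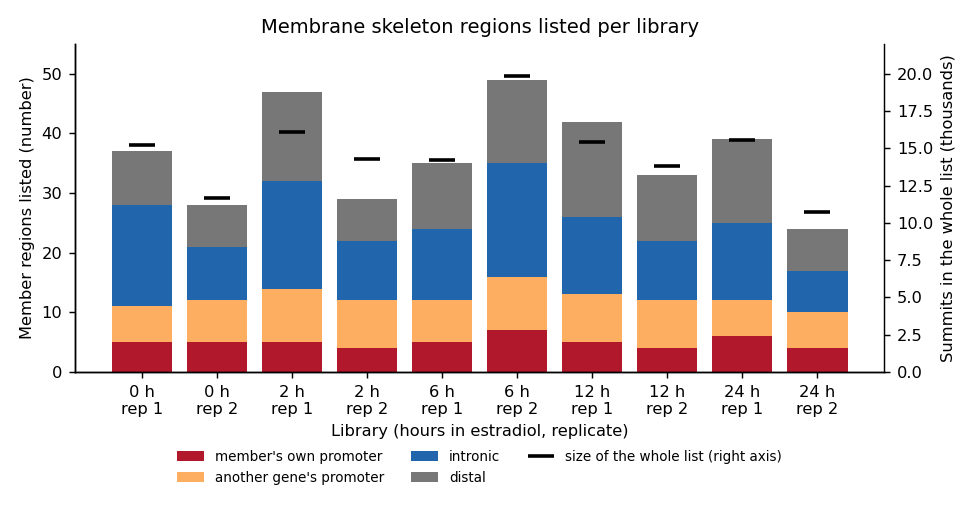
Number of member regions listed in each library, stacked by class (left axis), with the size of the whole list as black marks (right axis). The longest list, 6 h replicate 2, has 49 member regions and the shortest, 24 h replicate 2, has 24. The red part holds 4 to 7 of the 7 member promoters.

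GATA words were found in the central 201 bp of 22 of the 73 member regions (30.1%), beside 28.0% of all 28981 regions. Outside promoters they were in 34.6% of 52 member regions, beside 38.8% of the 19386 regions over 1 kb from a coding start. Among regions in every list they were in 6 of 16 at the members (37.5%) and in 13.2% of 6234 in all, and among those over 1 kb from a coding start in 4 of 9 (44.4%) and 46.7% of 1309. The composite with CTG was in 8 member regions (11%, beside 5.29% of all), and the letters CCACACCC or CCACGCCC on either strand, which KLF factors are known to bind, in 9 (12.3%, beside 6.84%). Outside promoters the composite was in 11.5% of member regions, beside 7.48% of regions over 1 kb from a coding start. The KLF letters were in 11.5%, beside 5.26%. Among regions in every list the KLF letters went the other way, in 1 of 16 at the members (6.25%) beside 11.2% of all. Of those outside promoters they were in 0 of 9, beside 6.95% of regions over 1 kb from a coding start. Of the member regions whose listing changed by 24 h, the 3 intronic ones, both of Add2 and that of Dmtn, held 2 GATA words. The 2 distal ones, upstream of Sptb and of Add2, held 0. Intronic regions of Sptb, Ank1 and Slc4a1 that were neither gained nor lost at 24 h also held 2. Counting 2 or more, so did 9 of the 73 member regions (12.3%), 8.30% of all regions and 11.9% of all regions over 1 kb from a coding start. In the whole series 38.5% of the 1017 regions lost at 24 h held 2 or more and 9.49% of the 495 gained. A match is a description of letters, and binding was not measured in these files.

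**Figure D5:**
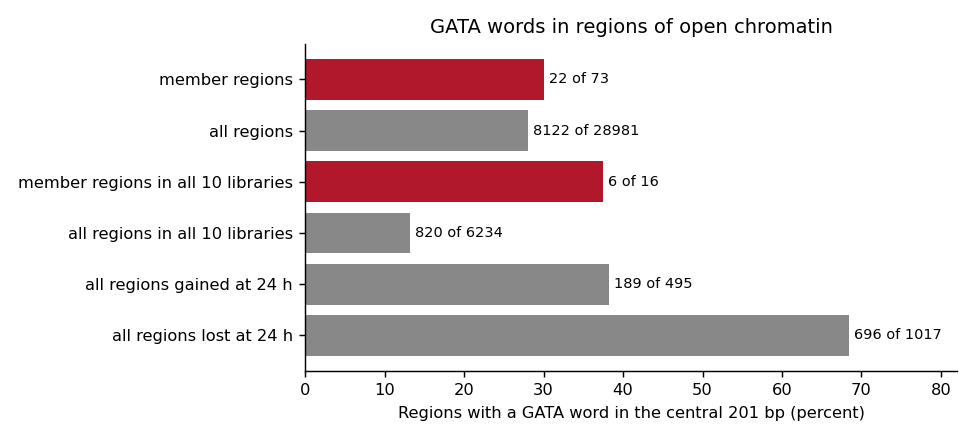
Percent of regions with AGATAA or TGATAA on either strand in their central 201 bp, with the counts beside the bars. Member regions (red) stand at 30.1% and all regions at 28.0%, and the regions of the series lost at 24 h at 68.4%.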

How the data were processed

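Reads were trimmed, placed on mm10 and filtered for a unique position by the authors, who then called peaks in each library with MACS, without a fragment model. The submitters' processing notes name Bowtie 1.0.0, Picard and MACS2, and the study's methods name Bowtie2. No shift for the Tn5 cut is stated. The deposited score is the −log10 of the q-value, with 1.30 as its lowest value, and depth is unknown. The genes, lists and tests were chosen with earlier results of these data known. Summits on chromosomes 1 to 19, X and Y were merged into regions in Python 3.11.15, and starts came from 41438 coding transcripts of GENCODE M21. Ranks were fitted with limma 3.58.1 and adjusted by Benjamini-Hochberg, after a test on simulated data. The regions named were every member promoter, every region gained or lost at 24 h, any that passed a rank test and, per gene, the highest mean percentile outside promoters among regions in at least 8 libraries. Others (in Sptb, at Ank1 4.09 kb before a start, at Slc4a1 10.1 kb upstream and in its intron 1, and promoters of neighbours) were named after their values were seen. Replicate numbers are shared between times, and replicate 1 deviations correlated over regions in all 10 pairs of times (0.182 to 0.347, median 0.247), so the numbers may pair the libraries. The fits and permutation tests given with the regions above were nevertheless made without a replicate term. Pairing by replicate number entered only as an alternative, the replicate block. No pair of lists shared a summit with the same position and score. Alternatives were other window sizes, flanks, score thresholds, equal lists, a replicate block and leaving out each library. Of the other skeleton genes chosen at the start, 1 is not reported here.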

Additional observations from a re-analysis of the deposited data

How the results depend on the processing

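At 24 h, 3 member regions were gained and 2 lost. With scores of at least 5, 0 were gained at 24 h (2 in place of 5 at 6 h and 1 in place of 3 at 12 h), and with 100 kb flanks 4 were lost. Leaving out 1 library gave 4 to 10 gained and 2 to 9 lost, with the largest counts without 24 h replicate 2 (10 gained) and without 0 h replicate 2 (9 lost). The share of all regions with scores of at least 5 or without 1 library is not given, and wider flanks take in more regions. These counts therefore describe the settings and not the members. The trend of member summits with hours, r = -0.245, ran from -0.442 to 0.0926 when 1 library was left out, and turned positive without 24 h replicate 2 only (0.0926). With time permuted within replicate number, as a replicate block, r was -0.278 (permutation p = 0.484), the exact permutation p of the Add2 listing was 0.0200 and 0.0400, and no call changed. The falls in listing of the 2 Add2 regions, added after the data were seen, stayed under an unadjusted exact permutation p of 0.05 in 15 and 13 of 15 settings. These settings were run only for the 2 regions already called lost at 24 h and reuse the same libraries, so they give no independent support. Neither fall passed after adjustment over all regions (adjusted p = 0.799, exact permutation test). No rank call was made at the members in any alternative. The cause of the differences was not tested. What limits these values is that the lists give no depth or read counts, that a region missing from a list was only not called, that summit positions depend on the read handling, and that there are 2 libraries at each time.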

Other observations

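Outside the 8 members, listing was also compared at other genes of the lattice and at paralogs. Of 52 regions at 8 other skeleton genes, 1 was gained at 24 h, outside the span of the gamma-adducin gene Add3 (chr19:53247817-53248473), and 1 was lost, near the stomatin gene Stom (chr2:35270422-35271003), or 1.92% each way beside 1.71% gained and 3.51% lost of all regions. Of 108 regions at 15 paralogs, 5 were lost (4.63%) and 1 was gained (0.926%) at 24 h. Among these, Ank2, the ankyrin-B gene used mainly in heart and brain, held 3 of the losses and the gain, all inside the gene. The gained Ank2 region (chr3:127406811-127407470) was listed by 6 libraries, at percentiles 69.5 and 8.47 at 12 h and 55.4 and 53.5 at 24 h. Sptbn1, a beta-spectrin used outside red cells, and Epb41l5 held the other 2 losses. No test compared the lists with each other.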
